A study of Mus musculus with 12 samples.

Results

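Sutured mouse corneas were set against corneas that were never sutured but lack Dscr1. The sutured set holds the 4 arrays whose titles carry the word sutured, all C57BL/6J whole corneas with 1 array each: wild type (WT) at day 5 after suturing, WT at day 7, a Dscr1 transgenic (Dscr1TG) at day 7 and Dscr1-null (Dscr1KO) at day 5. The intact set lacking Dscr1 holds 4 arrays of unsutured C57BL/6J corneas, 2 from Dscr1KO mice and 2 from mice null for both Dscr1 and Apoe (double KO). These are 8 of the 12 arrays of the series. The other 4, intact corneas with Dscr1 (2 WT and 2 ApoeKO), give the level of each transcript in unsutured corneas that keep the gene. The sources used here do not give the promoter that drives the transgene, nor the sex and age of the mice. Replicate 2 of the intact Dscr1KO arrays carries conflicting labels: its source field names ApoE-/-, while its title and genotype are those of Dscr1KO. The comparison asks which transcripts separate the inflammation that follows injury from the altered state of the intact cornea without Dscr1.

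A suture through the corneal stroma is a standard injury that draws neutrophils and macrophages into a transparent, vessel-free tissue and makes blood and lymphatic vessels grow in from the limbus. The corneal epithelium is stratified but not cornified, and it lies next to the conjunctiva, which has goblet cells, and near the cornified skin of the lid. Dscr1, now called Rcan1, encodes a protein that binds and restrains calcineurin, the phosphatase that activates NFAT transcription factors.

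Values are probe-set intensities on a linear scale, and differences are of log2(intensity + 3.6), sutured minus intact lacking Dscr1, with their standard errors (SE). A gene passed the test at a limma p under 0.05 after Benjamini-Hochberg adjustment over 12711 genes, in a fit of all 12 arrays in 3 sets. The spread within the sutured set contains differences of genotype and day, and p-values measure only the spread between these arrays. With 4 arrays a set, their number limits the precision. Per-array values below run in the order WT day 5, WT day 7, Dscr1TG day 7 and Dscr1KO day 5 for sutured corneas, and Dscr1KO replicates 1 and 2, then double KO replicates 1 and 2, for intact corneas lacking Dscr1.

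The arrays were read first for the targeted genes and for tissue other than cornea. Rcan1 read 663.6, 579.7, 548.3 and 479.1 in sutured corneas, against 477.5, 335.9, 379.6 and 331.7 in intact corneas lacking Dscr1, so signal remains in null corneas. A second, weaker probe set for the gene gave 40.6, 53.4, 66.7 and 13.1 in sutured corneas, against 13.3, 10.5, 20 and 12.8 in intact corneas lacking Dscr1. On that probe set the sutured Dscr1KO array lay with the intact null arrays and apart from the other 3 sutured arrays. The sources used here do not say whether either probe set lies within the deletion. Apoe read 32.5 and 22.7 in double KO, and 1272 and 316.8 in Dscr1KO. Sex-linked transcripts differed between the sets. Xist, which coats the inactive X chromosome, read 6.0 to 9.7 in sutured corneas and 4104, 5385.2, 4256.9 and 19.6 in intact corneas lacking Dscr1. Every sutured array was thus low in Xist, and of the intact arrays lacking Dscr1 only double KO replicate 2 was. Save through that array, sex and the difference between these sets cannot be told apart. Array medians were 15.6, 17.5, 16.2 and 17.3 in sutured corneas, against 19.5, 19, 21.1 and 18.2 in intact corneas lacking Dscr1, so these ranges did not overlap. In intact corneas with Dscr1 they ranged between 15.6 and 17. Corneal epithelial markers were bright everywhere: Krt12, the cornea-type keratin, read 5631.5 to 6871.5 in sutured corneas and 6034.1 to 10080.3 in intact corneas lacking Dscr1. The summed photoreceptor list read 66.2 to 109.0 in sutured corneas, and 94.2 to 5722 in intact corneas lacking Dscr1, with the highest value in double KO replicate 1. The summed lens list read 1497 to 9992 in sutured corneas, highest in WT at day 7, and 568.5 to 1363 in intact corneas lacking Dscr1.

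Of the genes tested, 996 were higher in sutured corneas (7.84%) and 1121 were lower (8.82%), together 2117 (16.7%), with 4176 at an unadjusted p under 0.05. For 764 of the higher and 891 of the lower genes the sets of 4 arrays did not overlap, as in 7.87% and 9.87% of all genes tested in those directions. The median difference over all genes was -0.04. After quantile normalization 1094 genes were higher and 943 lower, so which direction held more genes depended on the normalization. With a term for arrays of high Xist, 304 were higher and 411 lower, and among the 7 arrays with low Xist 484 were higher and 459 lower. Leaving out 1 array at a time gave 611 to 1420 higher and 657 to 1342 lower genes. The counts of higher genes were 613, 616 and 611 without the sutured WT day 5, WT day 7 and Dscr1TG arrays, and those of lower genes 691 and 657 without the WT day 5 and Dscr1TG arrays.

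Placing each called gene against intact corneas with Dscr1 shows in which set it had left that level. Against those corneas, 680 genes were higher in sutured corneas (5.35%) and 359 lower (2.82%), together 8.17% of genes. In intact corneas lacking Dscr1, 2223 were higher (17.5%) and 2305 lower (18.1%), together 35.6%. These comparisons share arrays, so the classes below describe the genes and carry no test of their own. Of the 996 genes higher in sutured corneas, 833 (83.6%) were low in intact corneas lacking Dscr1 against those with it, and 28 (2.81%) were high in sutured corneas against those with it. Itga6, an integrin subunit of epithelial anchoring junctions, belongs to both, and 136 belong to neither. Of the 1121 lower genes, 866 (77.3%) were high in intact corneas lacking Dscr1 and 48 (4.28%) were low in sutured corneas, 3 of them (Cldn8, Fam25c and Il1f5) in both classes. Itga6 was picked out after its values were seen. Most called genes were thus ones for which the intact corneas lacking Dscr1 had left the level of intact corneas with Dscr1. In a class that overlaps these, 610 genes were raised in both sets against intact corneas with Dscr1. Of those 610, 7 were higher in sutured corneas, 156 were lower, and 447 did not pass between the 2 sets. For 200 of the 447 the 95% interval of the difference lay within 1 log2 unit of 0, and for 394 within 2 log2 units.

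**Figure D1:**
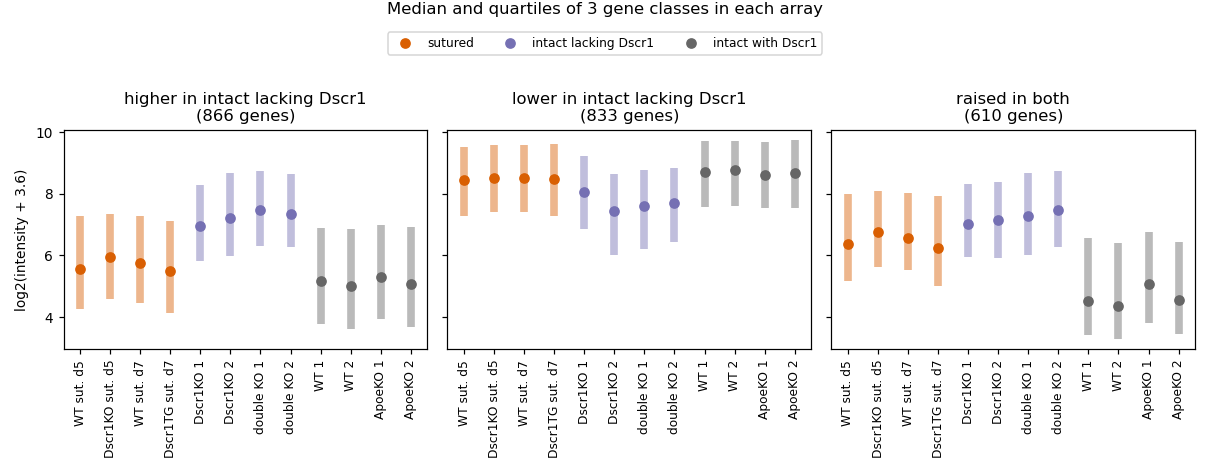
Median (point) and quartiles (bar) of log2(intensity + 3.6) over the genes of 3 classes on each of the 12 arrays, sutured left, intact lacking Dscr1 in the middle and intact with Dscr1 right (sut., sutured; d, day). The 866 genes high in intact corneas lacking Dscr1 had medians of 5.48 to 5.94 on sutured arrays, against 6.97 to 7.47 on intact arrays lacking Dscr1. Those arrays defined the classes, so the plot describes them.

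Cornified epithelium gave the widest gap. The keratinisation genes, which build the keratin bundles, granules and cross-linked envelope of skin, were dim after suturing and bright in intact corneas lacking Dscr1. Krtdap, a secreted protein of differentiating keratinocytes, read 3.6, 0.5, 5.5 and 2.4 in sutured corneas, against 1697.1, 7451.7, 5433.2 and 4807.0 in intact corneas lacking Dscr1. The sets lie far apart, by -9.40 ± 0.43 (limma adjusted p = 1.8e-08), and since the sutured values lie near the added constant the size moved between -10.24 and -8.38 over the alternatives. Lor, the envelope protein loricrin, read 12.6, 15.8, 13.9 and 8.6 in sutured corneas, against 1862.9, 1944.5, 3186.5 and 3241.9 in intact corneas lacking Dscr1 (-7.27 ± 0.21, limma adjusted p = 2.17e-10). Its values in intact corneas with Dscr1, 10.8 to 15.4, cover about the same range as the sutured ones. Rptn, repetin of the envelope, differed by -8.58 and Sprr3, a small proline-rich envelope protein, by -8.12. Krt10, the keratin of suprabasal epidermis, picked out after its values were seen, read 159.5, 173.8, 160.5 and 207.5 in sutured corneas, against 5532.2, 4789.1, 4129.9 and 5826.7 in intact corneas lacking Dscr1.

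In the keratinisation list 22 of 28 tested members were lower in sutured corneas and 1 was higher (Dsg1a, a desmosomal cadherin, at 1.07), with a median of -4.71. For 19 of the 22 the sets did not overlap, as for 891 of the 1121 lower genes in all. The count of lower members was 22 with any 1 array left out, 19 with the Xist term and 16 among the 7 arrays with low Xist. Krt6a and Krt6b, keratins of stressed and stratified epithelium, did not pass (-0.29 each). Against intact corneas with Dscr1, 4 members were higher in sutured corneas and 21 in intact corneas lacking Dscr1. Some of the list thus moved with suturing as well, and unevenly. Sprr2d, another small proline-rich gene, read 511.5, 60.2, 175.5 and 0.9 in sutured corneas, against 775.8, 2695.9, 1627.1 and 2588.7 in intact corneas lacking Dscr1. It was highest in WT at day 5 and lowest in Dscr1KO at day 5, and Sprr2f (473.4, 97.9, 89.6 and 8.1) had its highest and lowest sutured values on the same arrays. Krt16, a keratin of activated keratinocytes, read 2230.0, 2239.7 and 3436.5 in the first 3 sutured corneas and 263.6 in the sutured Dscr1KO cornea, against 496.1, 6480.8, 3624.0 and 3832.0 in intact corneas lacking Dscr1 (-0.82 ± 0.91, limma adjusted p = 0.564). Sprr2d, Sprr2f and Krt16 were picked out after their values were seen, and each sutured value is 1 array.

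**Figure D2:**
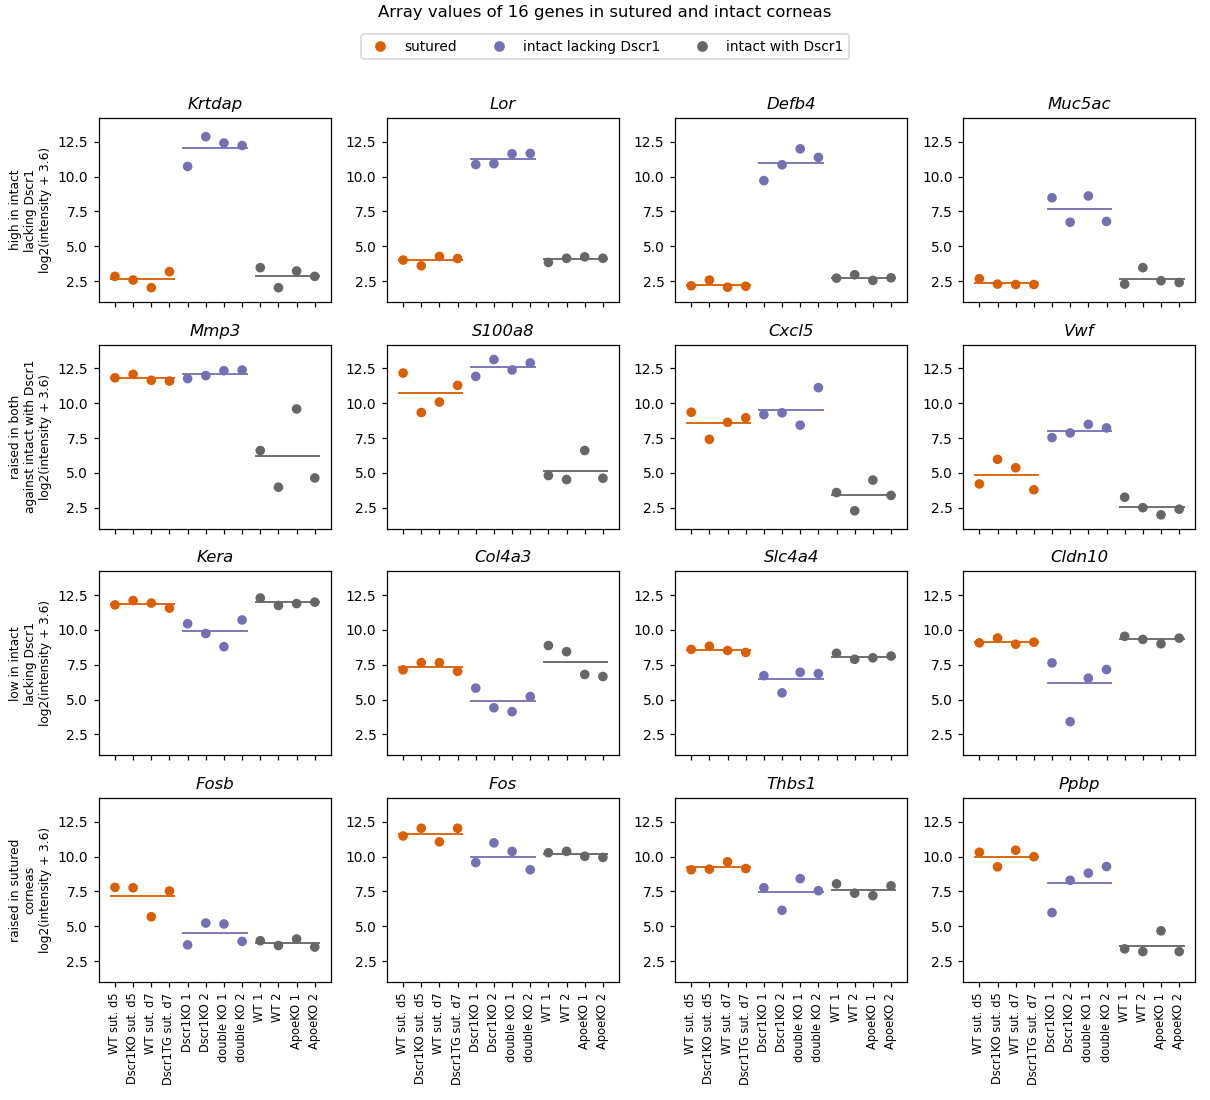
Values of 16 genes on each array, as log2(intensity + 3.6), in 4 sutured corneas (left), 4 intact corneas lacking Dscr1 (middle) and 4 intact corneas with Dscr1 (right). Each point is 1 array and each line the mean of a set. In the top row the sutured arrays lie with the intact arrays that keep Dscr1, and in the second row they lie between the intact arrays that keep Dscr1 and those that lack it, or level with those lacking Dscr1, as for Mmp3.

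Many of these genes neighbour each other. In the epidermal gene cluster on chromosome 3, which RefSeq (GRCm38.p6) lists as 85 genes between S100a9 and S100a11, 26 of the 29 tested genes were lower in sutured corneas and 0 were higher, with a median of -4.64. Of all genes tested, 8.82% were lower. The filter used the mean over all 12 arrays, so genes bright only in intact corneas lacking Dscr1 could be tested because of those arrays. Counts here and in the regions below therefore describe the tested genes and are no test of a region. The 3 that did not pass were S100a9, the epithelial envelope gene Ivl (0.72, adjusted p = 0.0789) and Tchh, trichohyalin of hair (-0.80, adjusted p = 0.0593), by limma. The late cornified envelope gene Lce1f differed by -6.49. Sprr2 and Lce genes are near-identical copies, and a probe set may read more than 1 of them. On chromosome 7, all 9 tested genes between Klk1 and Klk14 were lower in sutured corneas (median -3.77). Between Serpinb5 and Serpinb8 on chromosome 1, 4 of 7 were lower. Keratins between Krt1 and Krt7 on chromosome 15 differed from these clusters, with 1 of 10 lower, the epidermal keratin Krt1.

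**Figure D3:**
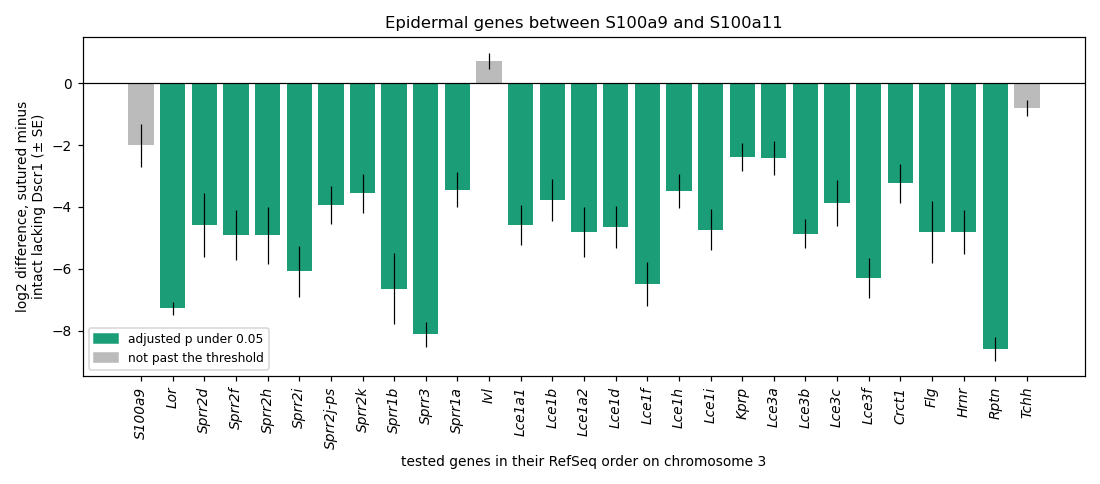
Log2 difference between sutured corneas and intact corneas lacking Dscr1 (bars, ± SE) for the 29 tested genes between S100a9 and S100a11, in RefSeq order. Green bars passed the test and grey bars did not. Lor, Sprr3 and Rptn have the longest bars, and the bar of Ivl alone points upward.

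Promoters of 4 of the genes that were lower together in sutured corneas are given from 250 bases before to 50 bases after the RefSeq start, on the coding strand (GRCm38.p6). They are Krtdap (chr7:30787655-30787954, plus strand), Rptn (chr3:93393449-93393748, plus strand), Lor (chr3:92083093-92083392, minus strand) and Sprr1b (chr3:92438730-92439029, minus strand). Capitals mark TGANTCA, the core that AP-1 factors such as Fos and Jun are known to bind, and TATAAA, which core promoter machinery is known to bind, both searched on both strands.
Krtdap: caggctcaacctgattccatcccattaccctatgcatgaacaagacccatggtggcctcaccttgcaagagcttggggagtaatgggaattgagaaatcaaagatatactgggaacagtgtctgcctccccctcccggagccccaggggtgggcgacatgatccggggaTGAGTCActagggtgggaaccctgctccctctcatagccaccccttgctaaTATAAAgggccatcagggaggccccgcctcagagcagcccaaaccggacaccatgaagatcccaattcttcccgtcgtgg
Rptn: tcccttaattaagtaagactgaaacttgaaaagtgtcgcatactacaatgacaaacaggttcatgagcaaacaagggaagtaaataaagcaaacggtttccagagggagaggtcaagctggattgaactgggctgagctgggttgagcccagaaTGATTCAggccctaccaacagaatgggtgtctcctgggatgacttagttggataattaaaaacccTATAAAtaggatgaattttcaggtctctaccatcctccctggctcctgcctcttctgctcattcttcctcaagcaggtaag
Lor: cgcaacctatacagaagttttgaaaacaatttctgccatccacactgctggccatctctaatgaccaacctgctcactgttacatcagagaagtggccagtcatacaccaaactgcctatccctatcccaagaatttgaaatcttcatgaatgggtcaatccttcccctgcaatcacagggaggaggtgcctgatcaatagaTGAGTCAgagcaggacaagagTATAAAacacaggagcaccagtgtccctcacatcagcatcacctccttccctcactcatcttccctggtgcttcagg
Sprr1b: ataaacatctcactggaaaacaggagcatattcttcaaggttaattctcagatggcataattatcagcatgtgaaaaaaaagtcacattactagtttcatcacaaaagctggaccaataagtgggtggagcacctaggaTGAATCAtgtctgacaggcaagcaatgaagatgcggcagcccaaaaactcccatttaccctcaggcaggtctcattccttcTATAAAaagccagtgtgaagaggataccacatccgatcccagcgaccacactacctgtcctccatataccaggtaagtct
The TATAAA begins 30, 31, 27 and 30 bases before the start in this order, and the TGANTCA 81, 96, 48 and 111 bases before it. Among tested members of the keratinisation list, 23 genes had 26 promoters in the RefSeq table, of which 14 (53.8%) hold TGANTCA and 14 (53.8%) hold TATAAA. Of all 32851 promoters of this length, 7.81% hold TGANTCA and 13.6% hold TATAAA. The 4 promoters shown each hold both motifs, so they do not stand for the whole list. A match is a run of letters, and binding was not measured.

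Proteases and antimicrobial peptides of the epidermis followed. Of 13 tested epidermal kallikreins and protease inhibitors, 12 were lower in sutured corneas and 0 higher (median -3.78). All 12 were without overlap, as were 891 of the 1121 lower genes in all. Klk13, a kallikrein protease, read 186.7, 19.7, 42.4 and 91.6 in sutured corneas, against 2662.3, 7064.7, 3021.6 and 3074.6 in intact corneas lacking Dscr1 (-5.78 ± 0.53, limma adjusted p = 3.03e-05). It lay above intact corneas with Dscr1, at 3.9 to 14.6, in both sets. Serpinb3a, a serine protease inhibitor, had the same order (-4.43), while Serpinb12 (-6.85) and Klk12 (-4.24) differed in sutured corneas from intact corneas with Dscr1 by 0.19 and 0.49. Of 13 tested antimicrobial genes, 7 were lower in sutured corneas and 0 higher. Defb4, a beta-defensin, read 0.9, 0.6, 0.8 and 2.4 in sutured corneas, against 835.9, 1843.2, 4077.7 and 2660.3 in intact corneas lacking Dscr1 (-8.74 ± 0.36, limma adjusted p = 8.17e-09). Defb3 (-7.89) and the C-type lectin Reg3g (-4.94) read at most 1.9 and 1.3 in sutured corneas. Slpi, a secreted inhibitor of neutrophil elastase, read 247.4, 184.6, 136.0 and 213.7 in sutured corneas and 1587.8 to 5738.3 in intact corneas lacking Dscr1, and was thus raised in both sets above the 28.3 to 57.0 of intact corneas with Dscr1. The remaining genes among the 12 largest falls were Calm4, an epidermal calmodulin relative (-8.23), the thioesterase Them5 (-7.37), the epithelial metallothionein Mt4 (-6.74) and Xist (-6.68). Foxn1, a transcription factor of hair and epidermis, was lower (-2.0).

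Goblet cell transcripts separated the sets as well. Muc5ac, the gel-forming mucin of conjunctival goblet cells, read 2.8, 1.2, 1.2 and 1.3 in sutured corneas, against 354.8, 102.6, 388.7 and 106.7 in intact corneas lacking Dscr1 (-5.28 ± 0.43, limma adjusted p = 1.04e-05). Of 14 tested conjunctiva and goblet cell genes, 7 were lower in sutured corneas, including Muc5b (-3.94), the secretory-pathway gene Agr2 (-2.22) and the trefoil peptide Tff1 (-1.70), and 1 was higher, with a median of -0.67. Krt4, a mucosal keratin picked out after its values were seen, differed in that it was raised in both sets: 2983.2, 3528.5, 2814.5 and 5305.7 in sutured corneas, 7769.4, 11727.8, 9577.1 and 7276.4 in intact corneas lacking Dscr1, and 205.8 to 506.3 in intact corneas with Dscr1. Jchain, the joining chain of secreted IgA, read 3.0, 5.8, 7.6 and 19.3 in sutured corneas, against 1075.9, 20.1, 818.6 and 95.5 in intact corneas lacking Dscr1 (-4.25 ± 0.94, limma adjusted p = 0.0096). Igha, the IgA heavy chain, picked out in the same way, differed by -5.36. Both had their lowest intact value in Dscr1KO replicate 2. Of 4 tested mast cell genes, Cpa3 (-3.20) and Cma1 (-1.74), which encode granule proteases, were lower and Kit, a receptor that other corneal cells also carry, was higher (1.79). The summed conjunctiva list read 11550 to 16590 in sutured corneas and 19010 to 24780 in intact corneas lacking Dscr1. Its part in the keratinisation result was not tested. In these whole-cornea samples, fewer cells of a type and less RNA per cell cannot be told apart.

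**Figure D4:**
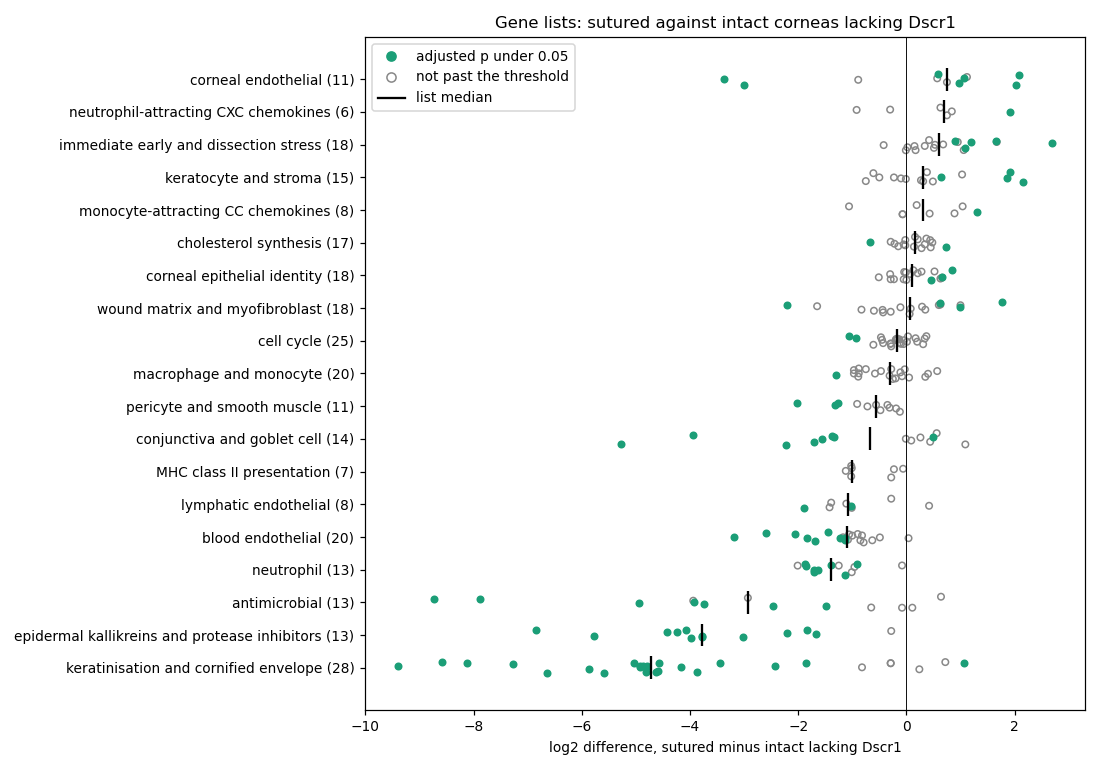
Log2 difference between sutured corneas and intact corneas lacking Dscr1 for each tested member of 19 gene lists (number tested in brackets), ordered by the list median (black line). Filled points passed the test and open points did not. Keratinisation, protease and antimicrobial genes lie furthest to the left, and the corneal endothelial list, with a median of 0.75, lies at the top.

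Neutrophil genes were raised in both sets against intact corneas with Dscr1, and many were lower in sutured corneas than in intact corneas lacking Dscr1. S100a8, a subunit of calprotectin, read 4596.4, 1085.1, 2493.2 and 642.3 in sutured corneas, against 3892.7, 9010.6, 5361.4 and 7603.8 in intact corneas lacking Dscr1 and 19.5 to 94.3 in intact corneas with Dscr1. WT at day 5 reached into the intact range, and the sutured Dscr1KO array was lowest (-1.87 ± 0.57, limma adjusted p = 0.0419). S100a8 missed the threshold in 16 of 25 alternatives. Its partner gene S100a9, picked out after its values were seen, did not pass (-2.01 ± 0.70, limma adjusted p = 0.064). Of 13 tested neutrophil genes 8 were lower in sutured corneas and 0 higher (median -1.39), among them the collagenase Mmp8 (-1.85), the formyl peptide receptor Fpr2 (-1.71) and the growth factor receptor Csf3r (-1.70). Against intact corneas with Dscr1, 11 of the 13 were higher in sutured corneas and all 13 were higher in intact corneas lacking Dscr1. The count of 8 was 3 without the Dscr1TG array, 4 without the sutured WT day 7 or Dscr1KO array or double KO replicate 2, 5 without double KO replicate 1, Dscr1KO intact replicate 2 or WT intact replicate 2, and 4 with the Xist term or after quantile normalization. Summed levels of the list ranged over 2005 to 12760 in sutured corneas and 12010 to 21340 in intact corneas lacking Dscr1, so the ranges just overlap.

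Of the chemokines that attract neutrophils, none was lower in sutured corneas. All 6 tested CXC chemokines of that kind were higher in both sets than in intact corneas with Dscr1. Between the sets 1 passed, upward, as did 7.84% of all genes. Ppbp, which platelets and myeloid cells release, read 1264.5, 1399.7, 1011.6 and 610.2 in sutured corneas, against 59.5, 311.2, 446.1 and 620.3 in intact corneas lacking Dscr1 (1.91 ± 0.59, limma adjusted p = 0.042). The sets overlap by the lowest sutured array, Dscr1KO, and Ppbp missed the threshold in 16 of 25 alternatives. Cxcl5, a chemokine of epithelial cells, read 652.1, 393.6, 496.1 and 167.1 in sutured corneas, against 580.7, 634.3, 341.5 and 2221.2 in intact corneas lacking Dscr1. Its difference of -0.92 has a 95% interval of -2.16 to 0.32, and that of Cxcl2 (0.75) an interval of -1.07 to 2.56. The Cxcl5 interval leaves room for a severalfold lower level in sutured corneas and the Cxcl2 interval for a severalfold difference either way. Of 8 tested CC chemokines that attract monocytes, Ccl2 was higher in sutured corneas (1.31 ± 0.39, limma adjusted p = 0.0383), with 63.9 to 76.8 against 16.9 to 40.1 in intact corneas lacking Dscr1, and it missed the threshold in 14 alternatives.

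Among 15 tested inflammatory mediators, 1 was higher in sutured corneas and 2 were lower. These 3 of 15 are close to the 16.7% of all genes that passed in either direction. Il1a, an alarm cytokine stored in epithelium, read 352.2, 191.0, 318.5 and 195.3 in sutured corneas, against 104.2, 121.9, 42.6 and 99.3 in intact corneas lacking Dscr1 (1.53 ± 0.30, limma adjusted p = 0.00532). The sets do not overlap, with each sutured array above each intact one. Il1rn, the antagonist of the same receptor, went the other way, at 143.6, 99.8, 118.5 and 59.6 in sutured corneas against 216.1, 214.3, 231.6 and 276.8 in intact corneas lacking Dscr1 (-1.19 ± 0.22, limma adjusted p = 0.00434). Il33, a nuclear alarmin of barrier epithelium, was also lower (-1.90). Among the 7 arrays with low Xist, where 1 intact array stands for its set, Il1a and Il1rn did not pass. Saa3, an acute-phase serum amyloid, was bright in both sets, at 6354.0, 2687.5, 4355.4 and 3884.9 in sutured corneas and 2855.1, 770.5, 4265.7 and 2500.4 in intact corneas lacking Dscr1 (0.90 ± 1.34, 95% interval -1.99 to 3.80). Mmp3, stromelysin, read 3081.7 to 4305.4 in sutured corneas and 3486.8 to 5348.3 in intact corneas lacking Dscr1 (-0.33 ± 0.86, limma adjusted p = 0.824), against 12.2 to 767.7 in intact corneas with Dscr1. ApoeKO replicate 1 gave the highest value there for Mmp3 and for Saa3 (2300.5). Srgn, serglycin of leukocyte granules, had a difference of -0.59 with an interval of -1.66 to 0.47.

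Of 20 tested macrophage and monocyte genes, 1 was lower in sutured corneas and 0 higher (median -0.29), where 8.82% and 7.84% of all genes were. Against intact corneas with Dscr1, 15 were higher in sutured corneas and 16 in intact corneas lacking Dscr1. The gene that passed was Csf1r, the receptor for macrophage growth factor, with 440.0, 765.5, 427.7 and 1007.0 in sutured corneas against 2225.0, 1653.0, 1027.5 and 1427.9 in intact corneas lacking Dscr1 (-1.30 ± 0.34, limma adjusted p = 0.0207). It did not pass without the WT day 5 or the Dscr1TG array. Of 7 tested MHC class II genes 0 passed in limma between these sets, with 1 at an unadjusted p under 0.05 (median -1.01). Without double KO replicate 1, 3 of the 7 were lower in sutured corneas. H2-Ab1, a class II beta chain, had the lowest p (-1.12, limma adjusted p = 0.108) with 83.3 to 161.8 in sutured corneas and 129.5 to 627.0 in intact corneas lacking Dscr1, and the invariant chain gene Cd74 followed (-1.01, limma adjusted p = 0.162). Among 9 tested complement genes Cfb (-1.72) and C2 (-1.34), which encode the proteases of its convertases, were lower, beside 8.82% of all genes. Neither passed with the Xist term, nor without the sutured WT day 7 array, the Dscr1TG array or double KO replicate 2. Gbp2, a guanylate-binding protein induced by interferon gamma, was the 1 of 13 interferon-stimulated genes to pass and was higher (1.37), as were 7.84% of all genes. The interferon count was 0 without the sutured WT day 7 or Dscr1TG array or Dscr1KO intact replicate 2, 2 without the sutured WT day 5 array and 3 without Dscr1KO intact replicate 1.

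Many blood endothelial genes were higher in both sets than in intact corneas with Dscr1, and some of them were lower in sutured corneas. Vwf, von Willebrand factor of endothelium, read 15, 37.9, 10.3 and 59.5 in sutured corneas, against 182.3, 230.5, 355.3 and 296.9 in intact corneas lacking Dscr1 and 0.4 to 6.0 in intact corneas with Dscr1 (-3.19 ± 0.43, limma adjusted p = 0.000554). Among sutured arrays WT at day 7 and Dscr1KO at day 5 were higher than WT at day 5 and Dscr1TG at day 7. Plvap, a diaphragm protein of fenestrated endothelium, had that order too, at 62.0, 138.3, 59.9 and 195.7 in sutured corneas against 280.0 to 421.3 in intact corneas lacking Dscr1 (-1.84 ± 0.45, limma adjusted p = 0.0168). Of 20 tested blood endothelial genes 9 were lower in sutured corneas and 0 higher (median -1.11), with the matrix protein Mmrn2 (-2.59) and the adhesion receptor Selp (-2.05) among them. The count was 4 without the Dscr1TG array, 5 without the sutured WT day 5 array, 14 without the sutured Dscr1KO array, 2 with the Xist term and 1 among the 7 arrays with low Xist. Against intact corneas with Dscr1, 15 were higher in sutured corneas and 19 in intact corneas lacking Dscr1. Aplnr, the apelin receptor of sprouting vessels, did not pass between the sets, at 54.6, 274.3, 82.6 and 261.9 in sutured corneas against 350.4, 866.6, 59.4 and 181.3 in intact corneas lacking Dscr1. Of 8 lymphatic genes 2 were lower, Thy1, a surface glycoprotein (-1.90), and the receptor for VEGF-C, Flt4 (-1.03). That count was 0 with the Xist term and among the 7 arrays with low Xist, 5 without Dscr1KO intact replicate 1 or the sutured Dscr1KO array, and 1 without any of several others, and Flt4 missed the threshold in 18 of 24 alternatives. Of 11 pericyte genes 3 were lower: Rgs5 (-2.02) and the channel subunits Abcc9 (-1.32) and Kcnj8 (-1.27). The pericyte count was 0 without either double KO array, the sutured WT day 5 array or the Dscr1TG array. Abcc9 missed the threshold in 19 of 24 alternatives and Kcnj8 in 15. Among 13 angiogenic ligands and receptors Apln, the ligand of Aplnr, was higher (0.78) and Vegfd was lower (-1.23). These 2 of 13 are close to the 16.7% of all genes that passed in either direction. Apln missed the threshold in 18 of 25 alternatives, and the higher count was 0 with the Xist term.

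Matrix genes divided. Postn, the matricellular protein periostin, read 253.1, 876.3, 240.6 and 1071.7 in sutured corneas, against 1987.1, 1791.4, 2832.6 and 2710.5 in intact corneas lacking Dscr1 (-2.21 ± 0.44, limma adjusted p = 0.00588), with the higher sutured values again in WT at day 7 and Dscr1KO at day 5. Thbs1, thrombospondin that restrains vessels and activates TGF-beta, was higher in sutured corneas at 526.2, 786.3, 560.6 and 543.0 against 213.6, 67.1, 338.6 and 183.8 in intact corneas lacking Dscr1 (1.76 ± 0.37, limma adjusted p = 0.00798). In all, 3 of 18 wound matrix genes were higher, the others being Cthrc1 (1.0) and the collagen Col12a1 (0.63), and 1 was lower. These 4 of 18 are close to the 16.7% of all genes that passed in either direction. With the Xist term 0 of the list were higher, and 1 without the sutured WT day 7 or Dscr1KO array. Col12a1 missed the threshold in 17 of 25 alternatives. Of 15 tested matrix metalloproteinases and relatives, 3 were lower and 0 higher, where 8.82% and 7.84% of all genes were. Mmp13, a collagenase, read 81.1, 190.7, 140.8 and 108.6 in sutured corneas, against 2712.1, 920.6, 3238.3 and 1434.6 in intact corneas lacking Dscr1 (-3.86 ± 0.86, limma adjusted p = 0.0104), and Mmp11 (-1.44) and Mmp2, gelatinase A (-1.17), were lower too. The count was 1 with the Xist term or without either double KO array, the sutured WT day 5 array or the Dscr1TG array, and Mmp11 missed the threshold in 18 of 24 alternatives.

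Several stromal and endothelial transcripts of the cornea itself were higher in sutured corneas than in intact corneas lacking Dscr1. Kera, the keratocyte proteoglycan keratocan, read 3544.6, 3885.2, 3018.7 and 4402.9 in sutured corneas, against 1388.2, 853.4, 441.3 and 1677.0 in intact corneas lacking Dscr1 and 3451.6 to 4992.8 in intact corneas with Dscr1 (1.92 ± 0.32, limma adjusted p = 0.00206). Kera passed in every alternative. Of 15 tested keratocyte and stroma genes 4 were higher in sutured corneas and 0 lower (median 0.31), the others being the secreted factor Angptl7 (2.15), the collagen Col8a1 (1.86) and the anticoagulant receptor Thbd (0.64). With the Xist term the count was 1. Lum, the related proteoglycan lumican, and Dcn, decorin, were bright in both sets and did not pass (0.38 and -0.01), picked out after their values were seen.

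Slc4a4, a sodium bicarbonate transporter of the pump endothelium, read 386.2, 364.4, 330.2 and 451.4 in sutured corneas, against 101.9, 41.2, 121.0 and 112.9 in intact corneas lacking Dscr1 (2.08 ± 0.26, limma adjusted p = 0.000368). The transporter Slc16a12 was higher as well (2.02). Of 11 corneal endothelial genes 5 were higher and 2 lower. The higher count was 3 with the Xist term or without the sutured WT day 5 array, Dscr1KO intact replicate 2, WT intact replicate 2 or ApoeKO replicate 2. The lower ones, Car2 (-3.37) and Car12 (-3.00), are carbonic anhydrases that skin and other epithelia also make. Col4a3, a chain of the basement membrane collagen that lens capsule, cornea and kidney share, read 137.0, 197.5, 126.8 and 198.1 in sutured corneas, against 53.1, 17.8, 14.0 and 33.7 in intact corneas lacking Dscr1 (2.47 ± 0.49, limma adjusted p = 0.00547). Its partner chains Col4a4 (2.24 ± 0.44) and Col4a5 (1.82 ± 0.29), picked out after their values were seen, were also higher. Further large rises were the claudin Cldn10 (2.96 ± 0.66), the anion exchanger Slc26a7 (2.95), the gastrokine Gkn1 (2.87), neuropeptide Y, Npy (2.83), the chondroitin synthase Chsy3 (2.80), the Wnt regulator Dkk2 (2.54), the matrix protein Npnt (2.50) and Med12l, a Mediator subunit relative (2.39). Cldn10 read 498.6 to 680.0 in sutured corneas and 7.1 to 195.0 in intact corneas lacking Dscr1, with 511.1 to 740.6 in intact corneas with Dscr1. With the Xist term Col4a3, Cldn10, Npy and Npnt did not pass, while Slc26a7, Gkn1, Chsy3, Dkk2 and Med12l did. The other 2 of the 12 largest rises, beside Fosb, were Y-linked, Eif2s3y (5.13) and Uty (3.50), and among intact corneas lacking Dscr1 they were present in double KO replicate 2, at 521.5 and 65.5. For Med12l another probe set gave -0.41 (limma adjusted p = 0.119).

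Of 18 corneal epithelial genes 3 were higher in sutured corneas and 0 lower (median 0.10), where 7.84% and 8.82% of all genes were: the epithelial factor Elf3 (0.84), the uroplakin Upk1b (0.65) and the stratified-epithelium factor Trp63 (0.46). The count was 5 without Dscr1KO intact replicate 1 and 1 without any of several other arrays. Trp63 missed the threshold in 20 of 25 alternatives and Upk1b in 15. Krt12 differed by -0.29 with a 95% interval of -0.63 to 0.05, and Aldh3a1, the corneal crystallin enzyme, picked out with it, by -0.04 with an interval of -0.33 to 0.24. In the cell cycle list, the mitotic genes Cdc20 (-1.06) and Bub1b (-0.93) were lower, 2 of 25, and 0 passed in limma among the 7 arrays with low Xist.

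In 28 genes sutured corneas were higher than both intact sets. Immediate early genes, which cells switch on quickly after a stimulus, were among the largest of them. Fosb, an AP-1 subunit, read 217.7, 47.7, 181.2 and 213.4 in sutured corneas, against 9.1, 34.0, 32.3 and 11.5 in intact corneas lacking Dscr1 and 7.8 to 13.4 in intact corneas with Dscr1 (2.70 ± 0.47, limma adjusted p = 0.00289). Fos read 2842.5, 2121.2, 4177.8 and 4178.6 in sutured corneas, against 755.7, 2017.0, 1319.4 and 527.8 in intact corneas lacking Dscr1 (1.65 ± 0.35, limma adjusted p = 0.00734). WT at day 7 was the lowest sutured array for both, close to the highest intact array lacking Dscr1. Of 18 immediate early and stress genes 5 were higher and 0 lower, with the heat shock gene Hspa1a (1.2) and the mRNA decay factor Zfp36 (1.08) among them, and the count was 3 with the Xist term or without double KO replicate 2 or the sutured WT day 5 array, 8 without Dscr1KO intact replicate 2 and 9 without the sutured WT day 7 array. This list also responds to handling of tissue at dissection, and its part in the result was not tested. Ccn1, a matricellular protein, read 810.0 to 2130.7 in sutured corneas and 342.6 to 639.0 in intact corneas lacking Dscr1 (1.74 ± 0.31, limma adjusted p = 0.00322). Adm, the vasodilator adrenomedullin, read 140.1 to 431.1 in sutured corneas and 58.5 to 84.1 in intact corneas lacking Dscr1 (1.66). Tmeff2, a transmembrane protein with follistatin-like domains (2.06), Ak7, an adenylate kinase (1.54), Thbs1 and Ppbp completed the 8 largest. The class held 10 genes with the Xist term and 13 without WT intact replicate 2. Ak7 missed the threshold in 18 of 24 alternatives.

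In the mirror class of 48 genes, sutured corneas were lower than either intact set. Ly6g6c, a lymphocyte antigen 6 family gene, read 175.7, 287.1, 163.7 and 331.8 in sutured corneas, against 581.2, 626.2, 633.6 and 479.6 in intact corneas lacking Dscr1 (-1.32 ± 0.21, limma adjusted p = 0.00163). Cst6, a cysteine protease inhibitor of epithelium, read 94.0 to 132.9 in sutured corneas and 267.5 to 348.0 in intact corneas lacking Dscr1, with 205.0 to 269.4 in intact corneas with Dscr1 (-1.39 ± 0.14, limma adjusted p = 6.24e-05). Fam25c (-2.95), Cldn8, a tight junction claudin (-2.35), Il1f5, an antagonist of the interleukin-36 receptor (-2.22), A330001L22Rik (-1.50), the keratin Krt78 (-1.43) and Phlda2 (-1.32) were the rest of the 8 largest. For Fam25c, Cldn8 and Il1f5 the intact corneas lacking Dscr1 were also above those with Dscr1. The class held 12 genes with the Xist term and 19 without WT intact replicate 2 or ApoeKO intact replicate 2.

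The same genotype on both sides is available once, as 1 sutured Dscr1KO array against 2 intact Dscr1KO arrays, so its values carry no test. These arrays also entered the calls. For 789 of the 866 genes high in intact corneas lacking Dscr1, the sutured Dscr1KO array lay below both intact Dscr1KO arrays, as it did for 36.5% of all genes tested. For 784 of the 833 genes low in intact corneas lacking Dscr1 it lay above both, as for 34.6% of all genes. Its median difference from the intact Dscr1KO mean over the 866 genes was -0.85, and that of the other 3 sutured arrays from the intact mean of all corneas lacking Dscr1 was -1.25. Among the 866 it lay above the other 3 sutured arrays for 394, within their range for 314 and below them for 158. The same counts were not made over all genes tested, so whether this order is particular to the class was not tested. Krtdap differed by -9.21 between the sutured Dscr1KO array and the intact Dscr1KO mean, Lor by -7.29, Kera by 2.01 and Fosb by 3.31. Over all 8 arrays, which include these 3, the differences were -9.40, -7.27, 1.92 and 2.70.

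Genes of lipid handling and of calcineurin signalling are read against the 16.7% of all genes that passed in either direction. Of 17 cholesterol synthesis genes, Sc5d, a sterol desaturase, was higher in sutured corneas (0.74) and Dhcr7, a sterol reductase, was lower (-0.67), with a median of 0.16. Dhcr7 missed the threshold in 19 of 25 alternatives. In the SREBP list of 14, the sterol sensors Insig1 (0.88) and Insig2 (0.75) were higher, and malic enzyme, Me1 (-2.66), and the SREBP escort Scap (-0.63) were lower. The higher count was 5 without Dscr1KO intact replicate 1 and 6 without the sutured Dscr1KO array. Insig1 read 1191.8 to 1403.4 in sutured corneas and 1157.8, 608.1, 575.0 and 618.5 in intact corneas lacking Dscr1. Of 18 genes of cholesterol efflux and lipid uptake 2 were lower, the oxysterol hydroxylase Cyp7b1 (-1.74) and the phospholipid transfer protein Pltp (-1.55), and 1 without the sutured WT day 7 or Dscr1TG array. Fabp4, which carries fatty acids in adipocytes, macrophages and capillaries, read 47.3, 52.9, 33.7 and 69.0 in sutured corneas, against 100.8, 359.6, 1379.3 and 449.0 in intact corneas lacking Dscr1 (-2.89 ± 0.58, limma adjusted p = 0.00571). Of 13 calcineurin and NFAT genes 3 were higher in sutured corneas and 0 lower: Rcan1 itself (0.58 ± 0.13, limma adjusted p = 0.0125), the factor Nfatc2 (0.98) and the catalytic subunit Ppp3ca (0.37). The intact set was chosen for lacking Rcan1, so its difference was built into the sets and is no result about suturing. The sutured Dscr1KO array read 479.1 for Rcan1, against 477.5 in Dscr1KO intact replicate 1. Rcan1 did not pass with the Xist term or with the 8 compared arrays alone, and another probe set of Nfatc2 gave -0.38 (limma adjusted p = 0.271). In the hypoxia and glycolysis list of 14, 4 genes were higher, including the carbonic anhydrase Car9 (1.91) and the oxygen sensor Egln3 (1.0), and hexokinase 2, Hk2, was lower (-1.32).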

How the data were processed

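Whole corneas were separated from enucleated eyes, and cRNA made from 100 ng of total RNA was hybridised to Affymetrix arrays, 1 sample an array, per the labels' protocols. The deposited values are linear intensities per probe set, and the authors scaled each array to a common level, as its trimmed mean of 100 (after 2% is cut from each end) shows. The sources used here do not name the summarisation software.

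Of 45101 probe sets, 34958 had 1 gene symbol in the platform annotation, 932 had several and 9211 had none. Each of 18194 genes was read by its brightest probe set. Genes with a mean log2(intensity + 3.6) over all 12 arrays under the 40th percentile were left out, except Rcan1 and Apoe, which left 12711. A gene bright in only some of the arrays could pass this filter through them. The constant 3.6 is the 20th percentile of all values. limma 3.58.1 (R 4.3.3) fitted 3 sets of 4 arrays with an intensity trend and 9 residual degrees of freedom, and p-values were adjusted by Benjamini-Hochberg at 0.05. The 3 contrasts share arrays. Tested on simulated data, the fit recovered 22%, 62%, 92% and 98% of genes shifted by 0.5, 1, 2 and 4 log2 units (50 genes each), and 3.52% of its calls were false. The simulation gave each gene independent noise of equal spread on every array and shifted only those genes. The real arrays differ in spread, with array weights of 0.351 to 1.942, so these shares do not give the false calls among the real genes.

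Named genes were chosen by several rules. The first took the 12 largest differences in each direction among genes past the threshold whose sets did not overlap. The others, with no such condition on overlap, took the 8 largest differences of each class (for genes raised in both sets, the 8 whose smaller rise was largest), up to 4 members of each list with the largest difference past the threshold (up to 2 with the lowest p where none passed), and Rcan1, Apoe and Xist. Other genes were chosen after their values were seen, as the text says. The comparison and the gene lists were chosen with earlier results of these data known.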

Additional observations from a re-analysis of the deposited data

Results flagged for a closer look

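Within each set of 4 arrays, 260 pairs of a named gene and a set were examined for 1 array apart from the other 3 (gap over range above Dixon's 95% critical value for 4 samples), and 29 were, where chance gives about 1 in 20. Among sutured corneas, WT at day 5 stood apart for Uty (90.6), Rptn (1.3), Calm4 (23.1), A330001L22Rik (1.2), Muc5ac (2.8) and Vegfd (16.2). WT at day 7 did so for Fosb (47.7), Med12l (339.4), Serpinb12 (0.2) and Thbs1 (786.3), and Dscr1KO at day 5 for Srgn (752.1), C2 (71.5) and Car9 (69.9). The Rptn, A330001L22Rik, Muc5ac and Serpinb12 values lie near or below the added constant.

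Among intact corneas lacking Dscr1, double KO replicate 2 stood apart for the sex-linked Xist (19.6), Eif2s3y (521.5) and Uty (65.5), and for Chsy3 (59.0) and Thbd (214.0). Double KO replicate 1 did so for Mmp8 (127.5) and for the photoreceptor genes Nrl (661.2) and Rom1 (371.7). Dscr1KO replicate 2 was apart for Mt4 (66.9), Ccn1 (639.0), Krt78 (296.9), Klk13 (7064.7) and Slc4a4 (41.2), and Dscr1KO replicate 1 for Gkn1 (24.5), Insig1 (1157.8) and Scap (415.2).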

How the results depend on the processing

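Of 117 named genes past the threshold, 48 stayed past it in every alternative and 80 with each array left out. Over all alternatives on the same probe set, 2751 values kept their direction and side of the threshold, 465 fell short of it, 7 passed it anew and 2 reversed, both of genes that did not pass: Mmp3 (0.33 with the Xist term) and Cxcl2 (-0.21 without Dscr1KO intact replicate 1, and up to 1.39 with other single arrays left out). With another probe set, Med12l (-0.41) and Nfatc2 (-0.38) reversed, neither past the threshold. Of the 47 named genes past the threshold with several probe sets, these 2 had an opposite one.

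The counts moved as well, and the cause was not tested. Higher genes numbered 397 and lower genes 592 with only the 8 compared arrays, where the smaller fit has fewer samples and the classes could not be computed. With 1 coefficient per labelled group there were 656 higher genes, 527 in the class low in intact corneas lacking Dscr1, and the sutured Dscr1KO array lay below both intact Dscr1KO arrays for 86.7% of the class high there (91.1% as reported). Testing every probe set gave 1526 higher probe sets and 56 that were high in sutured corneas against both intact sets. Array weights gave 60 of these, 106 low against both, 1022 raised in both sets and 86.9%. Without the filter, 27 were low against both, and the Dscr1KO share was 93.0%. A term for high Xist gave 304 higher and 411 lower genes, 10 and 12 high and low against both, 376 high and 279 low in intact corneas lacking Dscr1, 354 raised in both and 97.1%. Without Dscr1KO intact replicate 2 and ApoeKO replicate 1, whose labels or Apoe level are in doubt, there were 552 higher genes, 21 low against both, 443 low in intact corneas lacking Dscr1 and 87.9%. The following were chosen after seeing the data. Without ApoeKO replicate 1 and double KO replicate 1, 538 were low in intact corneas lacking Dscr1, with 97.3%. The 7 arrays with low Xist, where double KO replicate 2 alone stands for its set and is assumed to vary like the others, gave 484 higher and 459 lower genes, 15 and 12 high and low against both, and 421 high and 434 low in intact corneas lacking Dscr1.

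Leaving out 1 array at a time gave 611 to 1420 higher genes, 657 to 1342 lower genes, 13 to 40 high and 19 to 78 low against both intact sets, 557 to 1087 high and 525 to 1266 low in intact corneas lacking Dscr1, 343 to 712 raised in both, and 92.9% to 98.7% for the Dscr1KO share. The class low in intact corneas lacking Dscr1 held 541, 525 and 544 genes without the sutured WT day 5, WT day 7 and Dscr1TG arrays and 1266 without Dscr1KO intact replicate 1. The class high there held 573 without WT day 5 and 557 without Dscr1TG. Genes low against both numbered 78 without double KO replicate 1, and genes raised in both 403 without WT day 7 and 343 without WT intact replicate 2. No paired analysis was possible because the sutured arrays carry no replicate numbers. Differences between dim values depend on the added constant.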

Other observations

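Other lists mark tissue beside the cornea or single members of broader groups. Their counts stand beside 7.84% of all genes higher and 8.82% lower. In the lens list 1 of 16 tested genes was higher in sutured corneas, Cryab, a small heat shock crystallin (1.38 ± 0.30, limma adjusted p = 0.00905), at 912.1 to 2486.6 in sutured corneas and 356.5 to 786.4 in intact corneas lacking Dscr1. Tnni2, a fast muscle troponin, was higher (1.07) among 3 tested skeletal muscle genes. S100a3, a hair cuticle protein, was higher (0.90), and Foxn1 was the 1 lower gene among the 5 tested of that list. Scn7a, a sodium channel of glia and nerve, was lower (-1.15), 1 of 9 nerve genes. Mgst1, a glutathione transferase, was lower (-1.02) in the adipocyte and sebaceous list. Of 10 pigment genes 0 passed in limma, with 1 at an unadjusted p under 0.05. Tyrp1, a melanin enzyme, read 165.3, 206.8, 48.6 and 657.1 in sutured corneas, against 48.5, 73.9, 120.3 and 48.7 in intact corneas lacking Dscr1 (1.39 ± 0.56, limma adjusted p = 0.102), highest on the sutured Dscr1KO array.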
